A study of Mus musculus with 2 samples.

Results

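The 7 genes described here encode ligands and receptors through which antigen-presenting cells help or restrain T cells: Cd40, Cd80, Cd86, Cd83, Icosl, Cd274 and Pdcd1lg2. They were taken by symbol from a table of 16218 named genes, and all 7 had an entry. The table compares 1 library of each of 2 genotypes, made from polyadenylated RNA of C57BL/6J bone marrow-derived macrophages, which were grown for 5 days with L929 supernatant as the source of macrophage growth factor and given 10 ng/ml lipopolysaccharide (LPS) for 3 h. The control cells (WT) carried Lyz2-Cre, a recombinase expressed from the myeloid lysozyme gene. The TKO cells carried the same Lyz2-Cre with mir-17~92flox/flox, so that this microRNA cluster is removed where the recombinase acts, together with mir-106a~363-/- and mir-106b~25-/-, null alleles of the related clusters that do not depend on the recombinase. Neither the age nor the number of the animals is given in the sources used here. LPS was given to both genotypes, so no value below shows a response to LPS.

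With 1 library per genotype no difference has a replicate check, and the effect of genotype cannot be told apart from that of the culture or the library. "Higher" and "lower" therefore describe these libraries. The WT library had 10764519 counts and the TKO library 10836855. CPM is the count per 1000000 counts of a library, and FPKM, as deposited, is also divided by gene length. Each ratio is TKO CPM over WT CPM, followed in parentheses by its 95% counting interval (exact Clopper-Pearson), which covers counting error only, since amplified reads are not independent molecules. A gene was called 1.5-fold higher or lower where its log2 ratio passed that fold and its interval excluded equality. Genes averaging 1 CPM or more were taken as measured, which held for 6 of the 7 members and for 11662 genes in all. The deleted loci were not checked by these data, because a whole-gene count of a host transcript does not show whether the part that encodes the microRNAs was removed. Mir17hg, the host of mir-17~92, had 16 counts in each library, and Mcm7, the host of mir-106b~25, had 608 in WT and 496 in TKO, a ratio of 0.810 (0.718 to 0.914).

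T cells need a signal beside antigen to become fully active, and the B7 proteins CD80 and CD86 give it by binding CD28, while the same proteins bind the inhibitory receptor CTLA-4. ICOS ligand acts through ICOS, and the PD-1 ligands PD-L1 (Cd274) and PD-L2 (Pdcd1lg2) restrain T cells through PD-1. CD40 works in the other direction: it receives CD40 ligand from helper T cells and drives NF-κB signalling in the macrophage or dendritic cell. In macrophages, microbial products such as LPS are known inducers of several of these genes.

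None of the 6 measured members was called 1.5-fold apart between the genotypes, where 8.09% of all measured genes were. The most abundant, Cd40, Cd83, Cd274 and Icosl, lay between −0.18 and 0.15 on the log2 scale, and so did Cd86, at 0.06. Cd80 was 1.49-fold higher in the TKO library, but from so few counts that its interval included equality. Pdcd1lg2 was close to undetected in both libraries.

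Because the TKO genotype is labelled as lacking these microRNA clusters, the 3′ untranslated regions (UTRs) of the members were searched for letters that pair with them. The 13 different guide-strand microRNAs of the 3 clusters fall into 4 families by their seed, bases 2 to 8, which leads the pairing with a target. One microRNA of each family is printed here 5′ to 3′ from RefSeq, with the seed in capitals, because the sites in the members are read against these letters.
miR-17-5p: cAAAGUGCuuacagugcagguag
miR-18a-5p: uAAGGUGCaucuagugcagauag
miR-19a-3p: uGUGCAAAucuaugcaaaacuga
miR-92a-3p: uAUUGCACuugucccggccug
The miR-17 family has 6 of the 13 microRNAs, the miR-92a family 3, and the miR-18a and miR-19 families 2 each. They lie on chromosomes 14 (mir-17~92), 5 (mir-106b~25) and X (mir-106a~363).

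Of the 7 members, 3 had at least 1 match of 7 bases to such a seed in the longest annotated 3′ UTR (GENCODE M21, the GRCm38 assembly to which mm10 corresponds): Cd80, Cd274 and Pdcd1lg2. Cd40, Cd86, Cd83 and Icosl had none, in UTRs of 2035, 1493, 1447 and 1622 bases. Across 11149 measured genes with an annotated 3′ UTR, 34.2% held a match to at least 1 of the 4 families, 14.9% to the miR-17 family and 13.5% to the miR-19 family. Pdcd1lg2, which was not measured, is not among these genes. The 6 matches in the members are printed as the 30 bases around them, all on the plus strand, with the 7 matching bases in capitals.
Cd80, miR-19 match, chr16:38494672-38494701: aggacatagggacgaTTTGCACatttgctt
Cd80, miR-17 match, chr16:38495224-38495253: ggtaattttcagccaGCACTTTccaggtat
Cd274, miR-17 match, chr19:29387983-29388012: tgttggattggtgtgGCACTTTattctttt
Pdcd1lg2, miR-19 match, chr19:29470594-29470623: ttgcaggacctgccaTTTGCACttttgaac
Pdcd1lg2, miR-17 match, chr19:29470597-29470626: caggacctgccatttGCACTTTtgaaccct
Pdcd1lg2, miR-17 match, chr19:29470703-29470732: agcaagaccccaatgGCACTTTagacttac
In Cd80 the miR-19 match, in Cd274 the only match and in Pdcd1lg2 the last match are followed by an A, the base that faces the first base of the microRNA and is known to favour pairing. The first pair of Pdcd1lg2 matches shares bases. The Cd274 match starts at base 2586 of a 2683-base UTR, near its end. The Cd80 matches start at bases 248 and 800 of 1896 and the Pdcd1lg2 matches at bases 117, 120 and 226 of 669. A match is a description of letters and not evidence that the microRNA binds there.

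Whether genes with and without a match separate by their ratios was not tested, since Cd80 and Pdcd1lg2 had too few counts. Cd80, Cd274 and Pdcd1lg2 had log2 ratios of 0.52, −0.04 and −0.70, and the 4 genes without a match ran from −0.18 for Cd83 to 0.15 for Icosl. These log2 ratios are of CPM + 0.5, so the differences of Cd80 and Pdcd1lg2, which have few counts, are understated. Of the 3 genes with a match, Cd274 was the only 1 with enough counts for a narrow interval, and that interval included equality.

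Cd40, the TNF receptor family member that receives T cell help, was the most abundant of the 7. The gene (21939, chromosome 2, 165055614 to 165071654) was counted 5573 times in WT and 5220 times in TKO, at 309 and 287 FPKM. The TKO value was slightly lower, at a ratio of 0.930 (0.896 to 0.966). A higher FPKM was seen for 2.06% of measured genes in WT and for 2.17% in TKO. The interval excluded equality, but 68.2% of measured genes lay farther from equality than Cd40. With TMM scaling the ratio was 0.962 (0.926 to 0.999), so the upper bound lay just below equality.

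Cd80 and Cd86, the CD28 ligands, differed more from each other than either did between the genotypes. Cd86 (gene 12524, chromosome 16, 36568956 to 36666158) had 376 and 396 counts, 13.7 FPKM in WT and 14.4 in TKO. Its ratio of 1.05 (0.906 to 1.21) included equality. Cd80 (gene 12519, chromosome 16, 38457430 to 38495958) had 40 and 60 counts, 2.2 FPKM in WT and 3.27 in TKO. Its ratio of 1.49 (0.982 to 2.28) ranged from equality to more than 2-fold higher, so with total-count scaling a difference was not detectable at this depth. TMM, median-of-ratios and upper quartile scaling moved the lower bound just above equality (ratio 1.54, 1.02 to 2.36, with TMM). Under these scalings the plain ratio also passed 1.5, and Cd80 stayed uncalled only because the log2 ratio is taken with 0.5 CPM added. Among measured genes 12.5% lay farther from equality than Cd80, which made it the member farthest apart among the 6 measured. Per length, Cd86 exceeded Cd80 6.24-fold in WT and 4.39-fold in TKO. The change of that ratio between libraries, 0.702 (0.447 to 1.09), included equality.

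Cd83 encodes an immunoglobulin-family surface protein of activated antigen-presenting cells that is known to hold CD86 and MHC class II at the surface. The gene (12522, chromosome 13, 43785112 to 43803133) gave 3218 WT and 2864 TKO counts, or 139.8 and 123.6 FPKM. Its ratio of 0.884 (0.840 to 0.930) was the lowest among the measured members, and the interval lay below equality. Of measured genes, 50.3% were farther from equality.

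Icosl, the B7 family ligand of ICOS, went the other way. The gene (50723, chromosome 10, 78069368 to 78079525) gave 2512 WT and 2808 TKO counts, or 84.6 and 94.0 FPKM. The TKO value was higher, at a ratio of 1.11 (1.05 to 1.17), and the interval lay above equality. Here 56.4% of measured genes were farther from equality.

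The PD-1 ligand genes lie next to each other on chromosome 19, with 22823 bases between them, and had very different levels. Cd274 (gene 60533, 29362107 to 29388095) gave 4527 WT and 4444 TKO counts, or 114 and 112 FPKM. Its ratio of 0.975 (0.935 to 1.02) included equality, and 88.1% of measured genes lay farther from equality. With TMM scaling its log2 ratio was 0.01 in place of −0.04. The annotated span of Cd274 overlaps that of Plgrkt (180 and 156 counts) by 5186 bases. The strand setting of the counting is not given in the sources used here, so reads in that stretch cannot be assigned with certainty. Pdcd1lg2 (gene 58205, 29410919 to 29472927) gave 5 WT counts and 1 TKO count, listed as 0.14 and 0.03 FPKM. Its 0.464 CPM in WT and 0.0923 in TKO stand beside a floor of 3 counts, equal to 0.279 and 0.277 CPM. Its ratio of 0.199 had an interval from 0.0042 to 1.78, so these libraries give almost no information on how PD-L2 messenger RNA differed.

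The order of levels per length was the same in both libraries: Cd40, Cd83, Cd274, Icosl, Cd86, Cd80 and Pdcd1lg2. The intervals of neighbours in that order did not overlap within a library. The closest were Cd83 and Cd274 in the TKO library, at 119 to 128 and 108 to 115 FPKM. No spread between samples is known for this order. The summed FPKM of the 7 genes was 663 in WT and 634 in TKO, with Cd40 making up 46.5% and 45.3% of it.

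**Figure D1:**
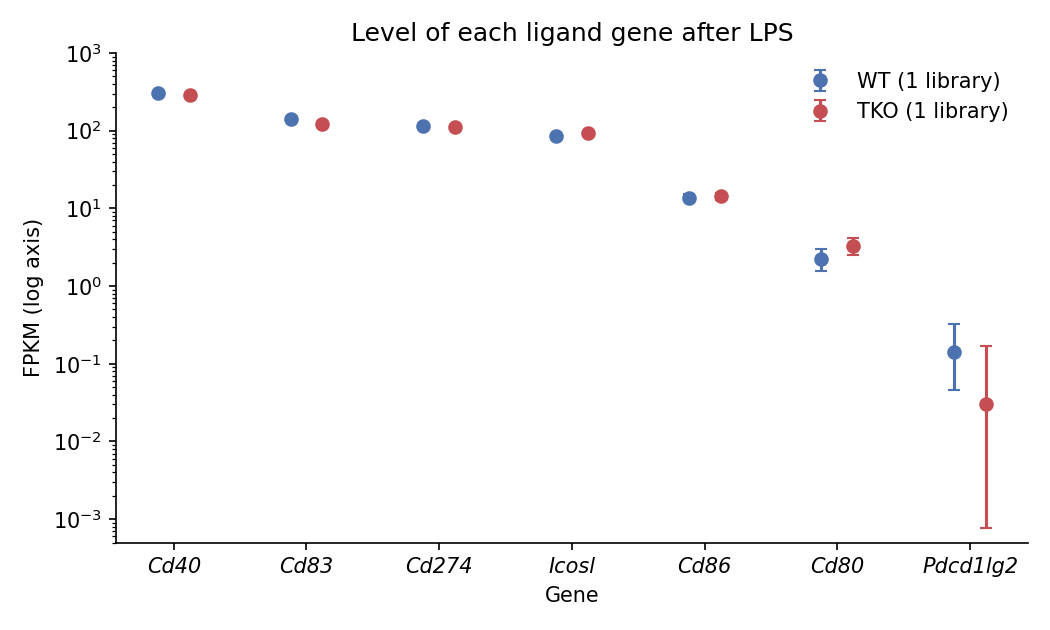
FPKM of each of the 7 genes on a log axis, WT in blue and TKO in red, 1 library each, with bars for the 95% counting interval (exact Poisson, scaled to FPKM). Cd40 stands highest at 309 and 287 FPKM and Pdcd1lg2 lowest at 0.14 and 0.03, and the order of the genes is the same in both libraries.

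The counts of called members are set here beside the shares over all measured genes. With only 6 measured members, 0 calls is unremarkable at such shares and shows nothing particular about these genes. At 1.5-fold with an interval excluding equality, 0 of the 6 measured members were higher in TKO, where 2.83% of measured genes were, and 0 were lower, where 5.26% were (8.09% in either direction). With a fold minimum of 2 the members also gave 0 and 0, against 1.02% higher and 1.68% lower, and with a minimum of 0.32 on the log2 scale 0 and 0, against 6.61% and 11.4%. By the interval alone 1 member was higher (Icosl) against 14.1% of measured genes, and 2 were lower (Cd40 and Cd83) against 20.2% (34.3% in either direction). Deeply counted genes have narrow intervals. The interval excluded equality in 42.0% of genes averaging 10 CPM or more, and in 64.0% of the 2097 genes averaging 100 CPM or more, which include Cd40, Cd83, Cd274 and Icosl. Of those 2097 genes 3.58% were called 1.5-fold apart. The median log2 ratio was 0.01 over the 6 measured members and −0.04 over all measured genes, whose standard deviation was 0.43. Of the members 5 lay within 0.32 of equality on the log2 scale, as did 72.3% of all measured genes and 86.0% of those averaging 100 CPM or more.

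**Figure D2:**
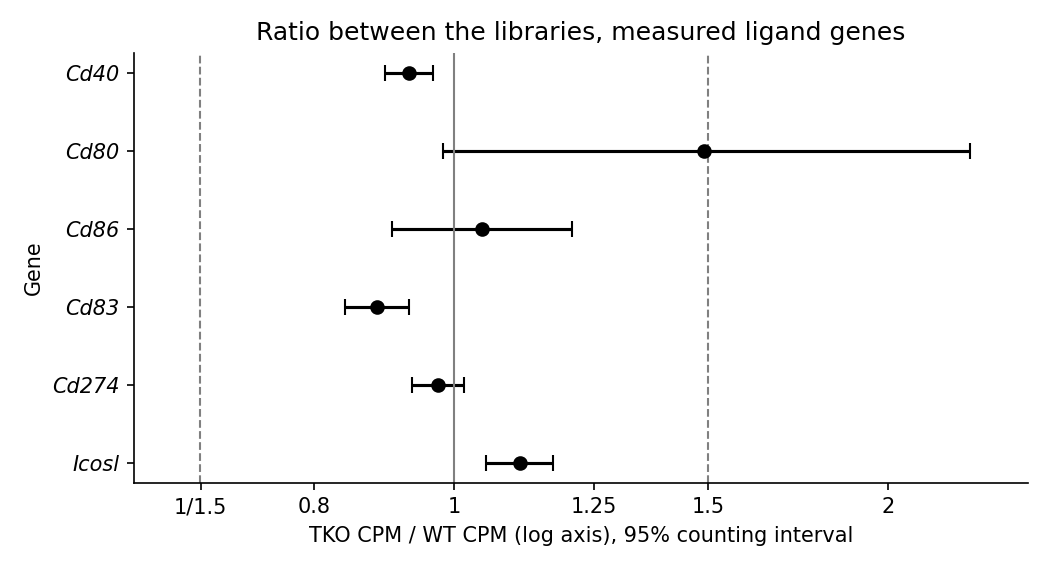
Ratio of TKO to WT CPM on a log axis for the 6 measured members, with bars for the 95% counting interval, a solid line at equality and dashed lines at 1.5-fold in each direction. The bars of Cd40 and Cd83 lie below equality and that of Icosl above it, and Cd80 has the widest bar, from 0.982 to 2.28.

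**Figure D3:**
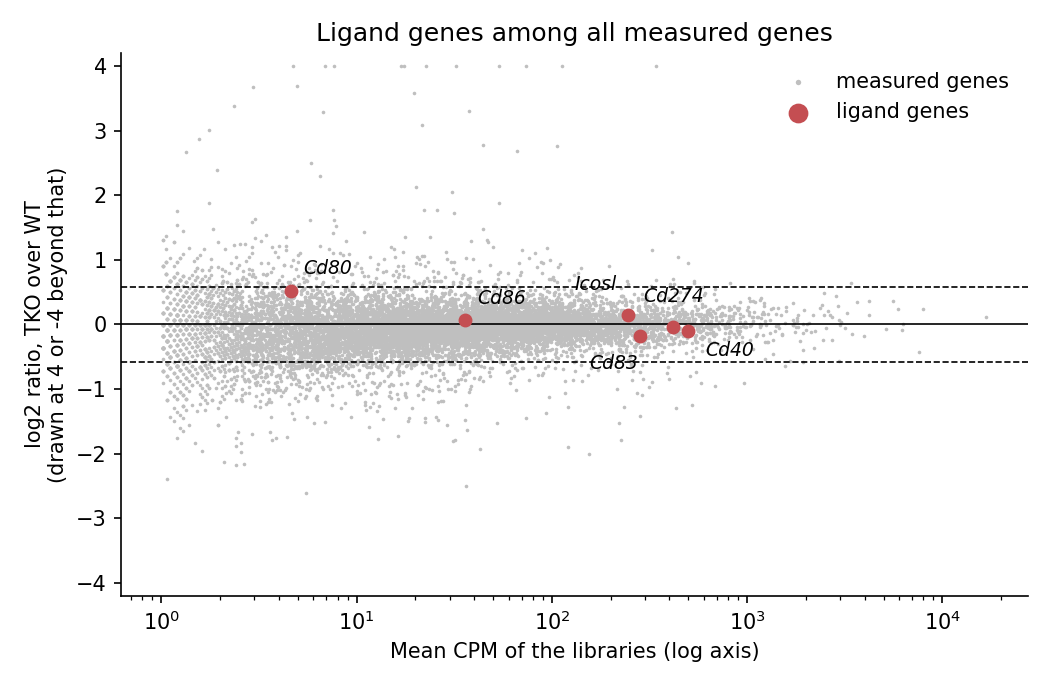
Log2 ratio of TKO over WT against mean CPM (log axis) for 11662 measured genes in grey and the 6 measured members in red, with dashed lines at 1.5-fold. Every red point lies between the dashed lines, and Cd80, at 0.52, is the nearest to one.

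The authors' deposited table sets the same pair of libraries side by side, by a test that no label or header names, so it too has no replicate. In the authors' deposited table the adjusted value was 0.00167 for Cd40, 2.12e-05 for Cd83 and 0.00131 for Icosl. It was 0.186 for Cd80, 0.508 for Cd274, 0.736 for Cd86 and 0.346 for Pdcd1lg2. At an adjusted value of at most 0.05 that table marks 7.71% of its genes as higher in TKO and 10.8% as lower. These shares are over all 16218 genes, including those below 1 CPM, whereas Cd40, Cd83 and Icosl each averaged 100 CPM or more. No share of this value at that depth was computed.

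The ratio between members was also compared. All 21 pairs of members were compared by the ratio of their counts, and in 8 pairs the interval of the change between libraries excluded equality, without adjustment over the pairs, which share genes. For single genes averaging 100 CPM or more, the interval excluded equality in 64.0%, which is a different measure. No share over pairs of other genes was computed, so the count of 8 pairs is not a result about these genes. Of these 8, the pair of Cd83 to Icosl had an FPKM ratio of 1.65 in WT and 1.31 in TKO, a change of 0.796-fold (0.739 to 0.858). The ratio of Cd40 to Icosl went from 3.65 to 3.05, a change of 0.838-fold (0.784 to 0.895). The PD-L1 to ICOS ligand ratio, Cd274 to Icosl, went from 1.35 to 1.19, a change of 0.878-fold (0.820 to 0.940). Scaling of the libraries does not enter these ratios.

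The receptors and ligands that meet the members on T cells were scarce. Of 5 partner genes, 3 had an entry: Cd28 with 76 and 112 counts, Icos with 6 and 2, and Pdcd1 with 2 in each library. Cd28 was the only 1 measured, at a ratio of 1.46 (1.08 to 1.99). Beside its 7.06 CPM in WT and 10.3 in TKO, the 6 of 8 T cell markers with an entry summed to 13.7 and 9.87 CPM. Of the CD3 genes in that list, Cd3d had 53 and 48 counts, while Cd3e and Cd3g had no entry. Lck, a kinase of T cell receptor signalling, was called lower, with 32 and 10 counts and a ratio of 0.310 (0.136 to 0.647). The part of T cells in the Cd28 value was not tested.

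Some other ligands of antigen-presenting cells were called. Of 17 measured genes in a list of 21 further costimulatory, inhibitory and adhesion ligands, 1 was called higher and 2 lower, beside 8.09% of all measured genes called in either direction, and the list's median log2 ratio was 0.10. Whether the list's spread differs from that of the members was not tested. Tnfsf9, the 4-1BB ligand, had 1375 and 860 counts, a ratio of 0.621 (0.570 to 0.677). Pvrl2, which encodes nectin-2, a ligand of DNAM-1 and TIGIT, had 480 and 278 counts, a ratio of 0.575 (0.494 to 0.668). Tnfsf8, the CD30 ligand, had 27 and 54 counts and was 1.99-fold higher (1.23 to 3.28). Of the other B7 family and butyrophilin genes 2 were measured: Vsir, the VISTA gene, had 1043 and 1039 counts, a ratio of 0.990 (0.907 to 1.08), and Cd276, the B7-H3 gene, had 62 and 47 counts, a ratio of 0.753 (0.504 to 1.12).

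Downstream of CD40, 1 of 20 adaptor and NF-κB genes was called higher and 0 were called lower, with a median log2 ratio of −0.05. The shares over all measured genes were 2.83% higher and 5.26% lower. The higher gene was Map3k14, the NIK kinase of the non-canonical NF-κB arm, with 62 and 97 counts, a ratio of 1.55 (1.12 to 2.17). Traf1 and Birc3, abundant members of the receptor's signalling complex, had ratios of 1.02 (0.973 to 1.07) and 0.971 (0.923 to 1.02). The inhibitors Nfkbia and Tnfaip3 had ratios of 0.766 (0.746 to 0.786) and 0.824 (0.805 to 0.844), lower in TKO by less than 1.5-fold.

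Upstream of the PD-1 ligands, 0 of 17 interferon, JAK-STAT and IRF genes were called 1.5-fold apart, where 8.09% of all measured genes were. The median log2 ratio of the 17 was −0.15. Irf1, a transcription factor known to drive Cd274, had 7126 and 6927 counts, a ratio of 0.966 (0.934 to 0.998). The interferon receptor chains Ifnar1 and Ifnar2 were lower, at 0.748 (0.720 to 0.776) and 0.701 (0.664 to 0.740). Both were less than 1.5-fold from equality.

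The RefSeq promoter table (GRCm38.p6) matched 4 of the 7 members, Icosl, Cd80, Cd274 and Pdcd1lg2, each with 250 bases before to 50 after an annotated start. For Cd80 and Cd274 that start lies inside the gene span given above, which begins at an earlier one. On both strands these windows were searched for the NF-κB letters GGGANTTTC and GGGNNTTCC, the interferon-response letters GAAANNGAA, the STAT letters TTCNNNGAA and the AP-1 letters TGACTCA. The interferon-response and STAT letters can share bases. The only match was to the interferon-response letters in Cd274, found in 8.56% of 32851 promoter windows. It is printed, on the gene's plus strand, because PD-L1 is known as an interferon-induced gene.
Cd274 promoter, chr19:29367352-29367381: actgggtggcTTCGGTTTCacagacagcgg
The capitals are the reverse complement of the letters searched and begin at position −76 from the start. The other letters were found in 1.11% and 5.82% (NF-κB), 8.30% (STAT) and 5.20% (AP-1) of windows.

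The genes of proteins that set how long the members stay at the cell surface were measured as a list of 15. Of these 0 were called 1.5-fold apart, where 8.09% of all measured genes were, and the list's median log2 ratio was 0.04. Marchf1, a ubiquitin ligase that removes CD86 from the surface, had 256 and 257 counts, a ratio of 0.997 (0.835 to 1.19). The related ligase Marchf8 had 444 and 644 counts, a ratio of 1.44 (1.27 to 1.63). Cmtm6, which protects PD-L1 from degradation, had a ratio of 0.918 (0.849 to 0.993). Messenger RNA does not show the amount of any of these proteins at the surface.

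Of 14 measured genes of antigen-presenting cell maturation, 1 was called higher and 2 lower, with a median log2 ratio of 0.01. Of all measured genes 2.83% were called higher and 5.26% lower. Tnfrsf9, the receptor of the 4-1BB ligand, had 51 and 12 counts, a ratio of 0.234 (0.113 to 0.444), and the signalling inhibitor gene Socs2 had 48 and 17 counts, 0.352 (0.190 to 0.623). Cd1d1, which presents lipids to NKT cells, had 30 and 62 counts and was 2.05-fold higher (1.31 to 3.29).

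**Figure D4:**
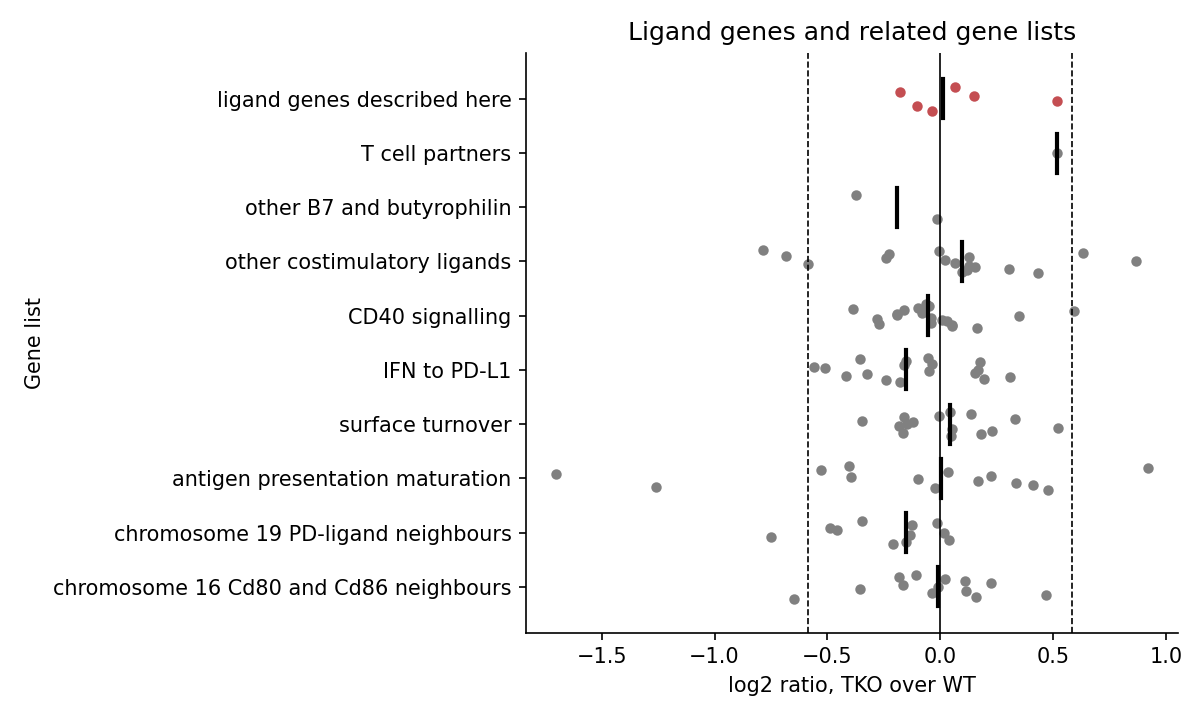
Log2 ratio of TKO over WT for each measured gene of the ligand set (red) and of 9 related lists (grey), with a black bar at each list's median and dashed lines at 1.5-fold. The red points run from −0.18 to 0.52 and none passes a dashed line. The maturation list reaches −1.70 (Tnfrsf9) and 0.92 (Cd1d1), but both of these genes average under 10 CPM.

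The nearest genes in level were sought among 108 measured genes of the other lists, by distance in log2 FPKM over the 2 libraries. Cd83 was closest to Ifngr2 (139 and 123 FPKM, distance 0.0042), Cd40 to Irf1 (308 and 297 FPKM, 0.0506) and Cd274 to Rela (119 and 123 FPKM, 0.156). Icosl was closest to Traf1 (distance 0.191), Cd86 to Zdhhc9 (0.232) and Cd80 to Plpp6 (0.381), while for Pdcd1lg2 the nearest, Cd244, was 4.81 away. With only 2 libraries such nearness is a match of level.

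The libraries bore macrophage markers at similar levels, with a summed 8083 CPM in WT and 8307 in TKO over 10 genes. Of these 10 genes 0 were called 1.5-fold apart, where 8.09% of all measured genes were. Since the members are also expressed by other cells, their markers are given as summed CPM. The 12 dendritic cell markers came to 103 CPM in WT and 249.8 in TKO, 5 of them measured and 1 called higher, Itgax at a ratio of 6.89 (6.09 to 7.82). Without Itgax the other 11 came to 76.5 CPM in WT and 63.5 in TKO, mostly from Fscn1, with 680 and 516 counts and a ratio of 0.754 (0.671 to 0.846). Clec9a and Batf3 were at 0 in WT and at 2 and 1 counts in TKO, and Cd209a had 1 count in WT and 0 in TKO. The 8 B cell markers with an entry came to 161 and 172 CPM, nearly all from Blnk (1607 and 1723 counts), with Fcer2a at 2 and 0 counts. The 8 fibroblast and stromal markers came to 397 and 155 CPM. Of 7 measured ones 5 were called lower, where 5.26% of all measured genes were. These were Col1a1, with 2055 and 550 counts, Col1a2, Col3a1, Dcn and Postn. The other measured ones, Pdgfrb (478 and 510 counts, ratio 1.06) and Pdgfra (32 and 30 counts, ratio 0.931), had intervals that included equality. Neutrophil markers came to 6.69 and 5.91 CPM over 8 genes, with Ly6g at 0 and 1 counts and S100a9 called lower at 21 and 8, and mast cell markers to 1.39 and 0.923 CPM over the 2 of 5 with an entry, Ms4a2 having 0 and 1. The part of any of these cells in the members' values was not tested. In bulk RNA, fewer cells of a type and less RNA per cell cannot be told apart.

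**Figure D5:**
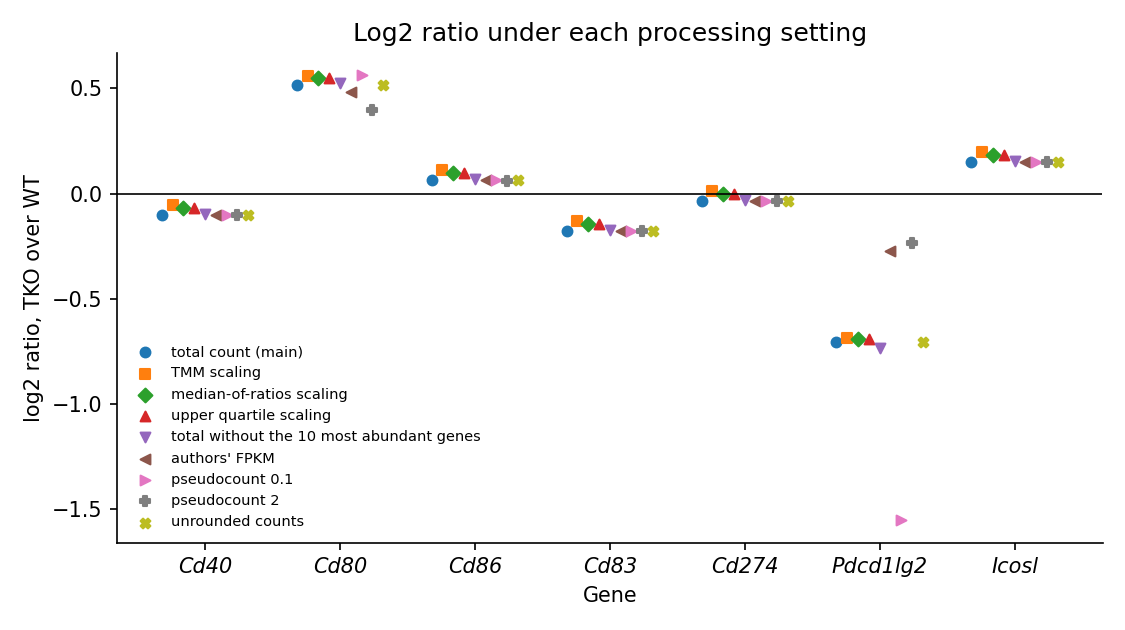
Log2 ratio of TKO over WT for each of the 7 genes under the main processing and 8 alternatives, 1 symbol per setting. Cd40 and Cd83 stay below 0 and Cd86, Cd80 and Icosl above it, Cd274 lies at 0 within 0.04, and Pdcd1lg2, with 5 and 1 counts, spreads from −1.55 to −0.24.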

How the data were processed

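The authors deposited 1 table with estimated counts per gene and library, in which 79.2% (WT) and 79.4% (TKO) were whole; they were rounded here. The deposited FPKM lists 0 as 0.01. The deposited log2 ratio equals log2 of TKO over WT FPKM, as recomputed here. No label or header names the test behind the deposited p-value. The adjusted value was read as a score, since in the deposited table it reaches 1.04, and gene length, another deposited score here, served 1 alternative. Per the submitters' processing notes, HISAT2 2.0.4, Bowtie2 2.2.5, RSEM 1.2.12 and mm10 were used; their roles are not given there.

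The 1 entry without a symbol (9.29e-06% of WT and 9.23e-06% of TKO counts) was left out, and 23 symbols stored as dates were restored from the gene identifier with RefSeq GRCm38.p6, which matched 16179 entries. CPM, ratios and Clopper-Pearson intervals were computed for every gene (Python 3.11.15, scipy 1.17.1) and tested on simulated data. Alternative scalings used edgeR 4.0.16. No p-value was computed. The members, the 9 related and 7 marker lists and the search letters were chosen with earlier results of these data known. From the 9 related lists, genes called 1.5-fold apart were named, up to 4 per direction, with all T cell partners and direct receptors or regulators of a member with at least 100 counts. Blnk, Cd3d, Cd3e, Cd3g, Clec9a, Batf3, Cd209a, Fcer2a, Ly6g, Ms4a2, S100a9, Lck, Fscn1, Itgax, Col1a1, Col1a2, Col3a1, Dcn, Postn, Pdgfrb, Pdgfra, Cd276, Vsir, Birc3, Nfkbia, Tnfaip3, Ifnar1, Ifnar2 and Jak2 were named after their values were seen. Some genes of these lists are not reported here. With 10764519 WT and 10836855 TKO counts, intervals are narrow for Cd40 and wide for Cd80.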

Additional observations from a re-analysis of the deposited data

How the results depend on the processing

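Each of the 7 log2 ratios was recomputed with TMM, median-of-ratios and upper quartile scaling, with a total that left out the 10 most abundant genes, with the authors' FPKM, with pseudocounts of 0.1 and 2 and without rounding. None of the 7 moved outside its counting interval. The counts of members 1.5-fold higher and lower stayed at 0 in these settings and with fold minimums of 2 and of 0.32 on the log2 scale. For Cd80 this rests on the added 0.5 CPM: its plain ratio was 1.54 (1.02 to 2.36) with TMM, 1.53 (1.01 to 2.34) with median-of-ratios and 1.53 (1.01 to 2.34) with upper quartile scaling, past 1.5-fold with an interval above equality. The number of members above equality by the interval alone was 1 and became 2, with Cd80 added, under TMM, median-of-ratios and upper quartile scaling, where the log2 ratio of Cd80 was 0.55 to 0.56. TMM scaling also turned the sign of Cd274, from −0.04 to 0.01. These scalings raise all log2 ratios alike: the median of all measured genes was −0.04 with total counts and 0.0031 with TMM (a recomputation added after seeing the data). The level order and the seed families matched did not change with CPM per length or with all annotated UTRs. When genes averaging under 10 CPM are dropped, the calls of Tnfsf8, Map3k14, Cd1d1, Tnfrsf9 and Socs2 are lost, since these genes lie below that filter, and Map3k14 is also lost with FPKM. No paired analysis was possible because each genotype has 1 library, and for the same reason no replicate could be left out. Depth limits Cd80 and Pdcd1lg2.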

Other observations

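The genes around the PD-1 ligands on chromosome 19 were mostly at or below equality. Of 11 measured genes in that list, 0 were called 1.5-fold higher and 1 lower, beside 2.83% and 5.26% of all measured genes. The lower gene was Insl6, with 119 and 69 counts and a ratio of 0.576 (0.422 to 0.781). The list's median log2 ratio was −0.15 beside −0.04 over all measured genes. Insl6 averages under 10 CPM, and without genes below that level the count of lower genes was 0. Jak2, which encodes the kinase that signals from the interferon-γ receptor and lies in the same stretch, had 9693 and 8795 counts, a ratio of 0.901 (0.876 to 0.928). Around Cd80 and Cd86 on chromosome 16, 13 genes were measured, and their median was −0.01. Of these 0 were called 1.5-fold apart, where 8.09% of all measured genes were.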
